A study of Bos taurus with 252 samples.

Results

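The comparison described here set the whole-blood libraries drawn on day 14 against those drawn on day 7 from the same steers. It took in every steer of the study, with all treatment groups pooled, which gave 42 pairs and 84 libraries, 33.3% of the libraries of the series. A library belonged to it when its label gave day 7 or day 14, and libraries were paired by the steer named in the label. The study followed crossbred steers entering a feedlot, and mRNA from blood was sequenced on day 0, the day after arrival, and again on day 3, on days 7 and 14 and on days 21 and 56. On day 0, after the blood draw, each steer received 1 antimicrobial as metaphylaxis, a preventive treatment against bovine respiratory disease, or nothing.

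Each of the 7 groups held 6 steers. NC was untreated, CEFT received ceftiofur, ENRO enrofloxacin, FLOR florfenicol, OXYT oxytetracycline, TILD tildipirosin and TULA tulathromycin. Before arrival all steers, NC included, had been given tildipirosin, a growth implant with trenbolone acetate and estradiol, 2 dewormers (doramectin and oxfendazole) and respiratory and clostridial vaccines, so that no group was free of earlier treatment. The age of the steers was not given in the sources used here. Groups were housed in separate pens and handled in a fixed order, all steers received the same starter diet, and none was treated for disease during the trial. All steers were sampled on the same dates. A change between day 7 and day 14 therefore cannot be told apart from the days spent in the feedlot, the ration, handling or anything else particular to a sampling day. Each steer was sequenced on 1 of 3 lanes on both days, so lane was taken up by the pairing.

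Whole blood RNA comes from a mixture of cells. Neutrophils and monocytes take up and kill microbes, T, B and NK cells carry the adaptive and cytotoxic responses, and platelets and immature red cells add their own transcripts. Young red cells still hold globin mRNA, which they lose as they mature, and neutrophil granule proteins are made mainly by precursors in bone marrow. Calves arriving at a feedlot meet transport, mixing, a new ration and new pathogens, and their leukocyte transcripts are studied as a readout of these.

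Markers of each blood lineage were present on both days. The lists fixed for hemoglobin, neutrophils, monocytes, T, γδ T, B, NK, eosinophils and basophils, and platelets had between 9 and 30 measured genes each. The libraries held 26.07 to 74.11 M counts (median 42.29 M on day 14 and 45.52 M on day 7). The mean difference in total counts, -2.82 M per steer (SD 8.716, n = 42 pairs), did not pass (permutation test, p = 0.0406, adjusted p = 0.0609). Hemoglobin genes took a median of 0.991% of counts on day 7 (lowest 0.009169%, highest 21.52%) and 3.072% on day 14 (lowest 0.02965%, highest 20.4%). The share was higher on day 14 in 32 of 42 steers, by 2.215 percentage points on average (SD 4.669, two-sided permutation test, p = 0.0034, adjusted p = 0.0102). Genes of the mitochondrial DNA went from a median of 2.781% to 3.336% of counts, higher in 28 of 42 steers (mean difference 0.6163 percentage points, SD 1.218, permutation test, adjusted p = 0.0102). The 10 most counted genes went from 7.897% to 9.478% (adjusted p = 0.014, same test), while ribosomal protein genes, at 5.915% and 5.998%, and the number of genes with a count, at 19820 and 19590, did not pass (adjusted p = 0.353 and 0.176). The hemoglobin share moved with the comparison, so counts are also given for the 23 steers in which it stayed at or under 5% on both days.

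The blood transcriptome changed broadly between day 7 and day 14, by small amounts in most genes. Genes were tested where they passed a low filter on CPM (counts relative to the library total, scaled between libraries by the TMM method). Of 19056 genes tested, 8483 passed a false discovery rate (FDR) of 0.05 (44.5% of tested genes, edgeR quasi-likelihood test with steer as a block). They divided evenly, 4277 higher on day 14 (22.4% of tested genes) and 4206 lower (22.1%), and 9594 genes had an unadjusted p under 0.05. The median size of a called change was 0.23 on the log2 scale (quartiles 0.16 and 0.33), and the median log2 fold change of all genes tested was 0.02. A change beyond 2-fold was reached by 171 called genes upward and 45 downward. In the 23 steers of low hemoglobin share 2920 genes were called higher and 3143 lower. Below, "higher", "lower", "rose" and "fell" are used for genes that passed this test. Fold changes are day 14 over day 7 on the log2 scale with their standard error (SE, n = 42 pairs), and levels are CPM. Counts in a gene list from this test are to be read against the shares over all genes tested, 22.4% higher and 22.1% lower. List counts in the 23 steers of low hemoglobin share are to be read against 2920 higher and 3143 lower of 19056 genes.

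The most repeatable changes were of modest size and were seen in nearly every steer. PRR33, a proline-rich protein, had a lowest, median and highest level of 4.345, 9.168 and 22.87 CPM on day 7 and of 7.135, 13.9 and 27.69 CPM on day 14. It was higher on day 14 in 42 of 42 steers, with a log2 fold change of 0.57 (SE 0.057, edgeR FDR 4.06e-09). The ranges of the days overlapped, and the regularity lay within steers. MCRIP1, an inhibitor of a transcriptional corepressor, rose in 42 of 42 steers from a median of 182.3 CPM (range 93.89 to 245.6) to 232.9 CPM (162.7 to 293). Its log2 fold change was 0.36 (SE 0.0367, FDR 4.1e-09). GRAP, an adaptor of antigen receptor signaling in lymphocytes, rose in 41 of 42 steers, from 211 CPM (125.3 to 298.5) to 262.1 CPM (193.4 to 369.3), by 0.33 (SE 0.033). SZRD1 and ACSF3, a mitochondrial acyl-CoA synthetase, each rose in 41 of 42 steers, by 0.22 and 0.32. 

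On the lower side, SACM1L, a phosphoinositide phosphatase of the endoplasmic reticulum and Golgi, had 27.88, 40.81 and 56.35 CPM (lowest, median, highest) on day 7 and 23.25, 34.04 and 43.16 CPM on day 14. It was lower on day 14 in 41 of 42 steers, at -0.29 (SE 0.0279, edgeR FDR 4.06e-09). CEP76, a centrosomal protein that restrains centriole duplication, went from a median of 14.59 CPM (8.772 to 25.42) to 9.825 CPM (6.432 to 15.15), lower in 40 of 42 steers, at -0.49 (SE 0.0499). FLVCR1, a heme and choline transporter, went from 26.88 CPM (15.5 to 44.12) to 18.94 CPM (11.26 to 30.12), lower in 41 of 42 steers, at -0.44 (SE 0.0461). SLC30A5, a zinc transporter, was lower in 41 of 42 steers, at -0.38. These genes were named by smallest p, and none of them reached a 2-fold change.

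**Figure D1:**
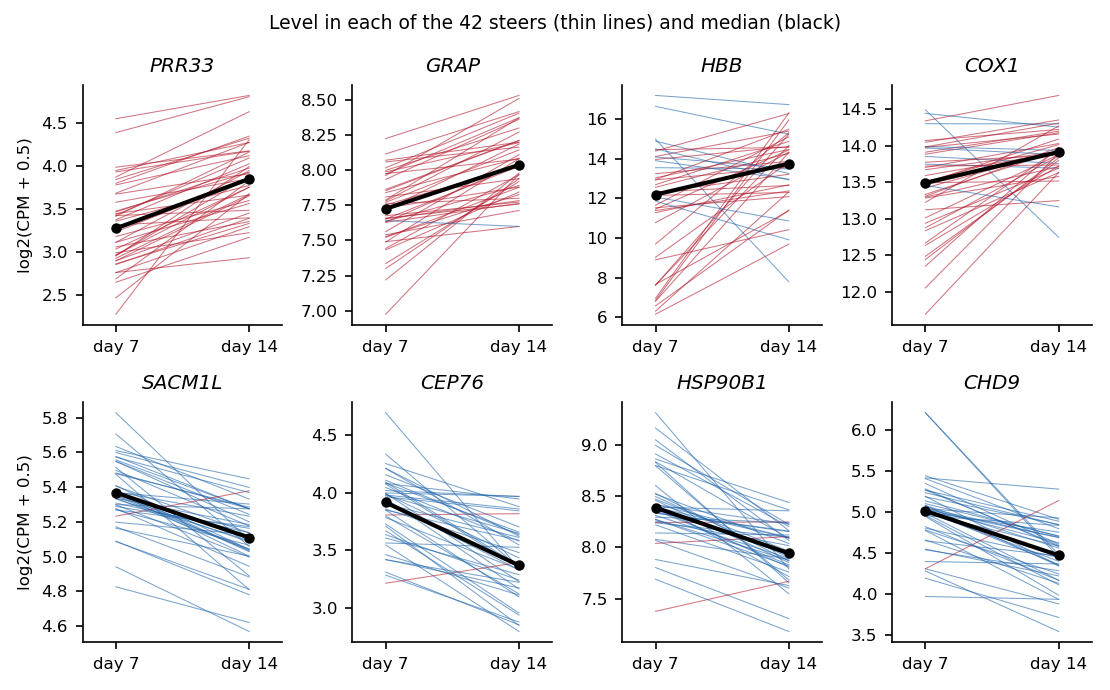
Levels of 8 genes on day 7 and day 14, 1 thin line per steer (n = 42) and a thick line for the median; each panel has its own vertical axis, log2 of CPM plus 0.5. PRR33 rises in 42 and GRAP in 41 of 42 steers, SACM1L falls in 41 of 42, and HBB, which rises in 32 of 42, spreads over the widest range.

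The largest changes that went one way in at least 34 of 42 steers, among genes of at least 1 CPM on average, were fewer and came from genes of low or uneven level. COL3A1 and COL1A2, fibrillar collagens of connective tissue, had median levels of 0.2427 and 0.3997 CPM on day 7 and of 1.182 and 1.491 CPM on day 14, with log2 fold changes of 2.37 (SE 0.545) and 2.07 (SE 0.478). COL3A1 had no count in 12 day 7 libraries and 113.7 CPM in another, and without pairing by steer its estimate turned to -0.60. REEP1, an endoplasmic reticulum shaping protein, rose from a median of 9.344 to 24.52 CPM (1.72, SE 0.488). DOC2G (1.07), ATP5IF1, the inhibitor of the mitochondrial ATP synthase (0.90), IGF2 (0.77), MSANTD1 (0.73), C7H19orf24 (0.71), GATA2 (0.68) and SMIM5 (0.65) followed. SMIM5 rose in 40 of 42 steers, from 0.8591 to 1.265 CPM.

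Downward, GXYLT1, a xylosyltransferase acting on Notch, had the largest change, -2.50 (SE 0.852), from a median of 16.15 CPM to 2.618 CPM. It was at 0 in 4 libraries on day 7 and in 17 on day 14, and its level summed with that of either neighbour also had a lower median on day 14, from 34.45 to 21.5 CPM with ZCRB1 and from 31.72 to 27.08 CPM with YAF2. YAF2 itself did not pass (0.17, FDR 0.279). EVI2A, a small membrane protein of blood cells, went from 24.05 to 9.272 CPM (-1.14). The remaining 8 genes lay between -1.01 and -0.76. They were CETN3, a centrin; EAF2, an elongation factor partner; MGC148714; NUF2, a kinetochore subunit; GTPBP10; SUB1, a transcriptional coactivator; LLPH; and SCOC. SUB1 had 21.01 to 194.7 CPM on day 7 and 14.11 to 89.92 CPM on day 14 and fell in 34 of 42 steers.

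Red cell genes rose together. Of 9 hemoglobin genes tested 8 were higher and 0 lower, with a median log2 fold change of 1.61 against 0.02 for all genes. The β chain HBB went from 4690 CPM on day 7 (71.02 to 150000) to 13880 CPM on day 14 (221.5 to 108800) and was higher in 32 of 42 steers (1.69, SE 0.523, edgeR FDR 0.00716). Single steers spanned several orders of magnitude on each day, and the ranges overlapped almost whole. HBA1 (2.02), HBA (1.75), HBM (1.74), HBQ1 (1.61), HBE2 (1.2), HBE1 (1.14) and HBG (1.11) also rose, and HBZ, at 0 in 26 day 7 libraries, did not pass (FDR 0.359). Globin genes are near-identical copies in part, so the division of reads between HBA and HBA1 is uncertain. In a bulk sample more cells of a type and more RNA per cell cannot be told apart.

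The enzymes and carriers of heme synthesis were divided, with 5 of 12 higher and 3 lower (median 0.25). ALAS2, the first and rate-limiting enzyme in red cell precursors, rose in 33 of 42 steers from 111.5 CPM (2.79 to 2766) to 387.5 CPM (9.07 to 3622), by 1.72 (SE 0.418, edgeR FDR 0.000724). UROS (0.26), UROD (0.24) and PPOX (0.35) rose, whereas CPOX (-0.28), the last enzyme FECH (-0.09) and the mitochondrial transporter ABCB10 (-0.22) fell. The mitochondrial glutathione carrier SLC25A39, of the list of erythroid and late red cell genes, rose in 36 of 42 steers from 139.2 to 213.3 CPM (0.58, SE 0.109).

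Red cell membrane proteins and blood group antigens were higher for 14 of 22 genes and lower for 1, with a median of 0.47. The anion exchanger SLC4A1 (1.45, FDR 0.0143), the water channel AQP1 (1.39), the Duffy antigen receptor ACKR1 (1.54), the Kell antigen KEL (1.61) and EPB42 (1.02) rose, and EPB41, which leukocytes also express, fell (-0.10). Most of these genes were low, with DMTN at 1.114 CPM on day 7 and 2.559 CPM on day 14. Among erythroid regulators and late red cell genes 15 of 35 were higher and 2 lower (median 0.25). The factor GATA1 rose in 35 of 42 steers, from 7.18 to 10.26 CPM (0.58, SE 0.148), and AHSP, the α globin chaperone, rose by 0.60. The factor KLF1 (0.32, FDR 0.195) did not pass. Both lower members were TENT5C, a poly(A) polymerase, which fell in 36 of 42 steers (-0.35, SE 0.0666), and the transferrin receptor TFRC (-1.13, FDR 0.0491), at 0 in 1 library on day 7 and 4 on day 14.

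In the 23 steers of low hemoglobin share the medians of the red cell lists were smaller and stayed above 0. There, 3 of 9 hemoglobin genes were called higher and 0 lower, and heme synthesis was again divided, with 4 of 12 higher and 3 lower. Membrane genes had 8 of 22 higher and 1 lower, and regulator genes 11 of 35 higher and 2 lower. The medians were 1.40, 0.13, 0.35 and 0.17. Of all 19056 genes, 2920 were higher and 3143 lower in those steers. The hemoglobin share itself still rose in those steers, by 0.8443 percentage points on average, in 19 of 23 (permutation test, adjusted p = 0.042).

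Neutrophil genes that passed were higher on day 14, with 1 exception on the granule list. Of 29 surface, oxidase and S100 genes 13 were higher and 0 lower (median 0.16). CYBA, the small chain of the phagocyte oxidase, rose in 38 of 42 steers from 294.1 CPM (117.3 to 556.1) to 382 CPM (165.2 to 645.9), by 0.36 (SE 0.0757, edgeR FDR 0.000138). Its partners NCF1 (0.36) and NCF4 (0.23) rose, and the large chain CYBB did not pass (-0.31, FDR 0.143). FCAR, the IgA Fc receptor, went from 4.185 to 7.764 CPM (0.93), the interleukin 8 receptor CXCR1 from 176.5 to 203.3 CPM (0.30), and the calcium-binding alarmin S100A9 from 544.7 to 699 CPM (0.30). S100A8 (-0.05, FDR 0.833), CXCR2 (0.01) and the integrin ITGAM (-0.24, FDR 0.743) did not pass. In the steers of low hemoglobin share 4 of 29 were called higher and 0 lower, with a median of 0.16. The median of the list was -0.16 in NC and lay between 0.07 and 0.42 in the treated groups, and the difference between groups was not called for any gene.

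Granule genes were higher for 12 of 26 and lower for 1, with a median of 0.64, and several were near 0. PRTN3, a primary granule protease, was at 0 in 22 day 7 and 13 day 14 libraries (1.36). AZU1 (1.14), MPO, the myeloperoxidase (0.46), the recognition protein PGLYRP1 (0.64) and the cathelicidins CATHL1 (1.52), CATHL2 (1.18) and CATHL3 (1.59) rose, all at medians under 2 CPM on both days. Cathelicidins are a family of close copies and their separate values are uncertain. Arginase, ARG1, rose from 7.796 to 21.64 CPM (1.53, SE 0.491), lipocalin LCN2 rose in 33 of 42 steers from 17.93 to 21.48 CPM (0.20), and BPI fell from 13.54 to 8.689 CPM (-0.45, FDR 0.0232). ELANE, the elastase gene, had the highest level of those named, 448.2 and 557.5 CPM, and just missed the threshold (0.47, FDR 0.0535).

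Eosinophil and basophil genes were higher for 8 of 18 and lower for none, and the count was the same, 8, in the steers of low hemoglobin share. GATA2, a factor of basophils, mast cells and progenitors, rose in 35 of 42 steers from 5.574 CPM (0.311 to 17.06) to 9.692 CPM (0.8599 to 21.86), by 0.68 (SE 0.132, edgeR FDR 3.96e-05). PTGDR2, the prostaglandin D2 receptor, rose in 37 of 42 steers from 14.31 to 20.94 CPM (0.41), the protease CPA3 from 1.239 to 1.91 CPM (0.64), the eotaxin receptor CCR3 by 0.25 and SIGLEC8 by 0.22. The interleukin 5 receptor IL5RA did not pass (0.20, FDR 0.0738).

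Monocyte genes leaned the other way, with 8 of 23 lower, 2 higher and a median of -0.14. CLEC4E, a receptor for mycobacterial glycolipid, fell from 4.348 to 2.817 CPM (-0.46, SE 0.108), the matrix proteoglycan VCAN from 43.3 to 35.6 CPM (-0.30) and the growth factor receptor CSF1R from 156.1 to 128.9 CPM (-0.20). MS4A7 rose from 88.89 to 108.3 CPM (0.23). CD14 (-0.19, FDR 0.134) and the scavenger receptor CD163 (-0.26, FDR 0.0621) did not pass. The median was 0.22 in FLOR and 0.00575 in OXYT and lay between -0.34 and -0.11 in the other groups. The lean was lost in the steers of low hemoglobin share, where 2 genes were higher and 2 lower. Platelet genes were near balance, 5 of 27 higher and 4 lower (median 0.16), and the chemokines PF4 and PPBP and the integrin ITGA2B did not pass.

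T-cell genes were higher for 11 of 27 and lower for 6, with a median of 0.04. CD3E, of the receptor complex, rose in 36 of 42 steers from 764.1 CPM (446.5 to 1378) to 888.5 CPM (528 to 1323), by 0.19 (SE 0.0381, edgeR FDR 6.59e-05), as did CD3D by 0.18 and the adaptor LAT in 36 of 42 steers by 0.24. The coreceptor CD4 rose by 0.11, and CD8A, at 48.62 and 43.01 CPM, did not pass (-0.13, FDR 0.683). TRAT1, an adaptor that holds the receptor at the surface, fell in 40 of 42 steers from 58 CPM (33.6 to 92.82) to 40.02 CPM (21.78 to 88.44) (-0.49, SE 0.0556, FDR 1.1e-08). The thymocyte selection protein THEMIS (-0.31) and the interleukin 7 receptor IL7R (-0.19) were lower too. γδ T cells are abundant in cattle, and 3 of their 13 genes were higher, 2 lower. WC1.3 (0.17), SOX13 (0.27) and the kinase BLK, which B cells also express, rose, BLK in 36 of 42 steers from 166.4 to 219.8 CPM (0.35, SE 0.0541), and the factor GATA3 (-0.18) fell. WC1 genes form a family of close copies, and reads may be divided among them.

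In T-cell receptor signaling 18 of 38 genes fell and 9 rose (median -0.07). The phosphatase PTPRC went from 909.4 to 811.3 CPM and fell in 36 of 42 steers (-0.25), PIK3R1 fell in 38 (-0.30), RASGRP1 in 37 (-0.28) and PAG1 in 37 (-0.36). In the steers of low hemoglobin share 20 fell and 7 rose.

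B-lineage genes were higher for 7 of 30 and lower for 9 (median -0.06), against 22.4% and 22.1% of all genes. CD79A, of the antigen receptor, rose from 722.1 to 841.4 CPM (0.18), its partner CD79B by 0.21 and the survival receptor TNFRSF13C by 0.24. MS4A1 did not pass (0.08, FDR 0.176). The joining chain of secreted antibody, JCHAIN, went from 411.2 CPM (56.71 to 978.5) to 237.8 CPM (64.8 to 791), lower in 33 of 42 steers (-0.60, SE 0.139, edgeR FDR 0.000418). TNFRSF17 (-0.75), the repressor PRDM1 (-0.42), MZB1 (-0.32) and IRF4 (-0.25) were lower, as was the B-cell identity factor PAX5 (-0.47). SDC1, a surface proteoglycan of plasma cells, at medians of 0.1907 and 0.2663 CPM, rose (1.12).

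Cytotoxic genes were mixed, 5 of 26 higher and 8 lower (median -0.09). GZMA fell in 33 of 42 steers from 73.7 to 48.51 CPM (-0.48, SE 0.0909), while GZMB rose in 33 of 42 from 28.31 to 42.37 CPM (0.43, SE 0.0974). These granzymes are proteases of the same granule, and their changes were opposite in sign and similar in size. The receptors KLRD1 (-0.40) and KLRF1 (-0.40), the factor EOMES (-0.27) and perforin PRF1 (-0.18) fell, and NCR3 (0.27) and GZMM (0.22) rose.

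Of the 13 protein genes of the mitochondrial DNA 8 were higher and 0 lower (median 0.47), and 5 were called in the steers of low hemoglobin share (median 0.49). COX1, the core subunit of cytochrome oxidase, rose in 34 of 42 steers from 11520 CPM (3320 to 22980) to 15410 CPM (6878 to 26340), by 0.46 (SE 0.0989, edgeR FDR 0.000184). CYTB (0.51), ND5 (0.55), ND4L (0.47) and ND6 (0.60) rose, and ND1 (0.15) and COX2 (-0.29) did not pass. COX3 had a median of 6.756 CPM and a highest level of 7850 CPM on day 7 and a median of 2418 CPM on day 14, and did not pass (0.99, FDR 0.335). 

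Nuclear genes of oxidative phosphorylation were higher for 40 of 77 and lower for 11 (median 0.12), with 21 of 38 higher and 6 lower in complex I and 19 of 39 higher and 5 lower in complexes II to V. NDUFA3 (0.26) and SDHB (0.21) each rose in 37 of 42 steers, and UQCR11 in 36 (0.28). Among the lower members were UQCRB, which fell in 36 of 42 steers from 30.31 to 22.23 CPM (-0.44), COX7C (-0.69), COX7B (-0.54) and NDUFB3 (-0.54). In the steers of low hemoglobin share 40 were higher and 7 lower.

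Ribosomal protein genes were higher for 36 of 78 and lower for 10 (median 0.13), and 32 did not pass. The median of the list was -0.0753 in FLOR and -0.0115 in TULA and lay between 0.0488 and 0.422 in the other groups. RPL38 rose in 37 of 42 steers from 206.7 to 287.1 CPM (0.38, SE 0.0559), RPS18 in 39 (0.30), RPL18 in 37 (0.30) and RPS12 in 33 (0.36). RPS3A fell from 603.1 CPM (107.8 to 1861) to 358.8 CPM (91.44 to 959.5) (-0.87, SE 0.177), and RPS27A (-0.81), RPS24 (-0.78) and RPL36A (-0.83) fell too, with wide ranges on both days. Ribosomal proteins have many processed pseudogenes, so single values are uncertain. Translation factors were balanced, 10 of 38 higher and 12 lower, with EIF4E, the cap-binding protein, lower in 38 of 42 steers from 40.32 to 24.93 CPM (-0.59, SE 0.0771) and EIF3E (-0.60), EIF5B (-0.31) and EIF5 (-0.19) also lower.

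The proteasome list had 18 of 42 higher and 10 lower (median 0.08), with group medians from -0.00631 in TILD to 0.202 in ENRO. The immunoproteasome subunits PSMB8, from 480.4 to 557.7 CPM (0.32), and PSMB9 (0.20) rose with the constitutive PSMB1 (0.20) and PSMB6 (0.25). PSMA3, which fell from 42.51 to 22.17 CPM (-0.76, SE 0.114), PSMC6 (-0.59) and the activator PSME4 (-0.27) fell.

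Nuclear regulators of chromatin and splicing fell, and these lists were among the most one-sided. Chromatin modifiers were lower for 35 of 57 genes and higher for 4, with a median of -0.27 against 0.02 for all genes. In the steers of low hemoglobin share 36 were lower and 1 higher. Remodelers had 20 of 26 lower and 0 higher (median -0.32), acetyltransferases and demethylases 9 of 15 lower and 1 higher, and methyltransferases 6 of 16 lower and 3 higher. CHD9, a chromodomain helicase, fell in 41 of 42 steers from 31.77 CPM (15.12 to 73.7) to 21.64 CPM (11.11 to 38.31) (-0.53, SE 0.0654, edgeR FDR 2.93e-08). ARID4B (-0.55), the DNA demethylase TET2 (-0.51), the histone methyltransferase KMT2C (-0.46), ARID4A (-0.41) and the remodeler SMARCA5 (-0.37) fell, and DOT1L rose (0.17). The acetyltransferase EP300 did not pass (-0.39, FDR 0.181). The lowest, the median and the highest level of CHD9 were each lower on day 14.

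Splicing factors had 25 of 42 lower and 3 higher (median -0.10). SRSF11 went from 134 to 93.63 CPM (-0.49), SF3B1, the branch site recognition subunit, from 503.8 to 394.7 CPM (-0.32), and SON fell in 41 of 42 steers from 249.1 to 198.4 CPM (-0.35). HNRNPU fell in 39 of 42 (-0.21). SRRM2, a scaffold of nuclear speckles, rose from 1060 to 1269 CPM (0.25). SF3B6 had the largest fold on the list, -1.55, from 7.256 to 2.598 CPM with levels of 0.1877 to 32.82 CPM on day 7.

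Ubiquitin ligases were lower for 24 of 36 and higher for 4 (median -0.19). Kinases and large trafficking genes were lower for 25 of 33 and higher for 2 (median -0.25). Both lists, like the others, were made with earlier results of these data known, so their lean is not independent evidence. HERC4 (-0.35) and UBR3 (-0.38) fell in 40 of 42 steers and FBXO11 (-0.36) in 39, while CUL9 rose (0.22). ROCK1, a kinase of actin contraction, fell in 40 of 42 from 108.9 CPM (56.09 to 218.6) to 76.12 CPM (41.69 to 119.5) (-0.51, SE 0.0572, edgeR FDR 9.97e-09), ROCK2 (-0.43) in 39 and CEP350 (-0.39) in 40. In the steers of low hemoglobin share the counts were 23 lower and 3 higher for the ligases and 26 lower and 1 higher for the kinases and trafficking genes.

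Some of the largest downward values belonged to genes that were on in some libraries and nearly off in others on the same day. Of the called genes 37 had at least 5 CPM in 5 or more day 7 libraries and under 0.5 CPM in 5 or more others, 16 of them lower on day 14 and 21 higher. The kinase TAOK1 was at 0 in 11 day 7 libraries and in 27 day 14 libraries, with medians of 34.6 and 0 CPM. ATR, the kinase of the replication checkpoint, was at 0 in 25 and 36 libraries, and the zinc finger gene ZKSCAN8 in 8 and 16. LYST, a regulator of lysosome-related granules, went from a median of 19.33 CPM to 0.7956 CPM. BIRC2, an inhibitor of apoptosis and ubiquitin ligase, went from 22.19 to 2.709 CPM (-1.94). ZKSCAN8 alone went from a median of 9.725 to 0.1014 CPM. Its sum with each of 4 neighbouring genes also had a lower median on day 14, from 41.25 to 36 CPM with ZNF389, from 36.54 to 23.84 CPM with LOC112443783, from 24.63 to 10.72 CPM with ZSCAN16 and from 9.934 to 0.4775 CPM with LOC104975673. TAOK1 summed with ABHD15 went from 37.14 to 5.013 CPM and with TP53I13 from 42.23 to 11.1 CPM, and the sums of LYST with each of its neighbours had a median of 1.561 CPM or less on day 14. Names other than these neighbours were not looked at.

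The cell cycle list had 23 of 39 lower and 3 higher (median -0.14). Its median was 0.02 in NC and lay between -0.26 and -0.11 in the treated groups, and the difference between groups was not called for any gene. MKI67, the proliferation marker, went from 143.3 CPM (56.29 to 258.2) to 112.3 CPM (72.15 to 216.5) and fell in 32 of 42 steers (-0.32, SE 0.0649, edgeR FDR 8.4e-05). TOP2A (-0.38), the kinesins KIF11 (-0.38) and CENPE (-0.45), CENPF (-0.38) and cyclin CCNE1 (-0.26) fell, cyclin CCND3 rose in 37 of 42 steers from 630.5 to 725.3 CPM (0.20), and the replication clamp PCNA did not pass (-0.01, FDR 0.886).

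Among heat shock and chaperone genes 14 of 27 were lower and 4 higher (median -0.14), with a median of -0.00233 in ENRO and between -0.295 and -0.0923 in the other groups. HSP90B1, of the endoplasmic reticulum, fell in 39 of 42 steers from 334.7 CPM (165.5 to 637.7) to 245.7 CPM (144.3 to 346.7) (-0.49, SE 0.0565, edgeR FDR 1.42e-08). DNAJC3 (-0.28) and HSPA13 (-0.51) fell in 39 of 42, and HSPA5, the chaperone BiP, in 35 (-0.28). DNAJB4, of the cytosol, fell in 40 (-0.57). The cytosolic HSPA8, at 924.3 and 953.3 CPM (0.02, FDR 0.881), and the inducible HSPA1A (-0.11, FDR 0.542) did not pass. On the integrated stress response list 6 of 25 rose and 5 fell (24% and 20%, near the 22.4% and 22.1% of all genes). The kinases EIF2AK3 (-0.31) and EIF2AK4 (-0.24) and the phosphatase subunit PPP1R15B (-0.32, lower in 41 of 42 steers) fell, TRIB3 (0.20) and ATF5 (0.21) rose, and ATF4 did not pass (0.02, FDR 0.765).

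**Figure D2:**
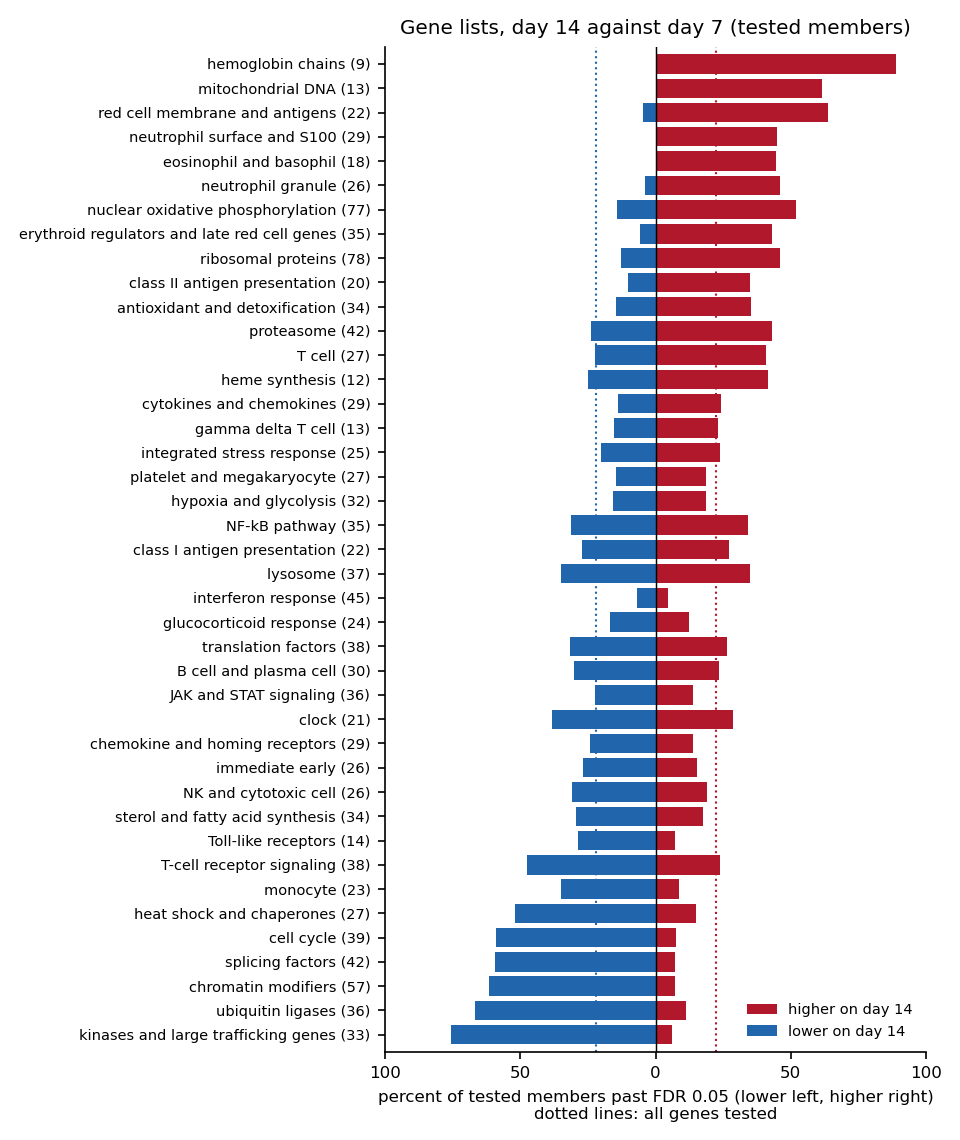
For each gene list, the percentage of its tested genes called higher (to the right) and lower (to the left) on day 14 at FDR 0.05, with the percentages over all 19056 genes, 22.4 and 22.1, as reference lines. Hemoglobin, red cell membrane and mitochondrial DNA genes lie far to the right, and kinases and trafficking, ubiquitin ligase, chromatin, splicing and cell cycle genes far to the left. The lists were made with earlier results of these data known.

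Ligands and signaling of inflammation changed by small amounts in both directions. Cytokines and chemokines had 7 of 29 higher and 4 lower (median 0.09). These shares, 24.1% and 13.8%, were near or under the 22.4% and 22.1% of all genes. Lymphotoxin LTB rose in 37 of 42 steers from 629.3 to 751.2 CPM (0.25), the interleukin 1 antagonist IL1RN in 34 from 198.3 to 260.2 CPM (0.32), IL1B in 29 from 174.7 to 219.5 CPM (0.29), TNF in 35 from 35.93 to 39.82 CPM (0.17) and OSM in 34 (0.41). The neutrophil chemokine CXCL8 fell from 10.81 to 7.957 CPM (-0.43). Chemokine and homing receptors had 4 of 29 higher and 7 lower (13.8% and 24.1%). CX3CR1 (-0.20), CCR2 (-0.32) and the integrin ITGA4 (-0.31) fell, S1PR4 rose (0.23), and CXCR4 did not pass (-0.05, FDR 0.626).

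NF-kB genes were 12 of 35 higher and 11 lower. IRAK1, the kinase below the interleukin 1 and Toll-like receptors, rose in 41 of 42 steers from 154.6 CPM (107.6 to 210.2) to 192.7 CPM (147.2 to 248.3), by 0.28 (SE 0.0327, edgeR FDR 1.75e-08). MYD88 (0.27) and TNIP1 (0.28) rose with it, while MAP3K7 (-0.29) and its binding partners TAB2 (-0.25) and TAB3 (-0.39) fell. Toll-like receptors and their adaptors had 4 of 14 lower, with TLR3 (-0.24) and LY96 (-0.20) among them, and 1 higher, TIRAP (0.22). TLR2 and TLR4 did not pass. JAK and STAT genes had 5 of 36 higher and 8 lower (13.9% and 22.2%, against 22.4% and 22.1% of all genes). JAK2 (-0.37), SOCS4 (-0.48) and SOCS5 (-0.43) fell, and SOCS3 rose from 145.6 to 187.1 CPM (0.34).

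The interferon response gave few calls, 2 of 45 higher and 3 lower with a median of -0.14, both shares well under the 22.4% and 22.1% of all genes. IFI35 (0.20) and ISG20 (0.39) rose, and IFI16 (-0.19) and IFIT5 (-0.35) were among those that fell. These calls depended on the fit. In an edgeR fit of the libraries of all days 3 were higher and 0 lower, with IFI16 (FDR 0.0763) and IFIT5 (FDR 0.227) not called. In the steers of low hemoglobin share 1 was higher and 0 lower. Without 2 steers, Enro2 and Tula3, 0 were higher and 1 lower. ISG15 ran from 11.48 to 972 CPM on day 7 and from 19.87 to 803.2 CPM on day 14 and did not pass (0.15, FDR 0.687), nor did MX1 (-0.17) or RSAD2 (-0.72, FDR 0.054). Steers differed widely in these genes on both days. The median of the list was -0.55 in NC and lay between -0.17 and 0.12 in the other groups, and the difference between groups was not called for any gene.

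Antigen presentation by class II rose for 7 of 20 genes and fell for 2 (median 0.16). BOLA-DRA rose in 33 of 42 steers from 2263 CPM (911.6 to 4019) to 2574 CPM (1199 to 3956), by 0.18 (SE 0.0421, edgeR FDR 0.00037). BOLA-DQB (0.43), BOLA-DOA (0.18) and the transactivator CIITA (0.20) rose, RFXAP fell (-0.17), and the invariant chain CD74 did not pass (0.09, FDR 0.11). Class II genes are polymorphic and similar to each other, so mapping may differ between steers. Class I presentation had 6 of 22 higher and 6 lower. Among those lower were CANX, a chaperone of newly made chains, in 41 of 42 steers (-0.32), the chaperone HSPA5 (-0.28) and the trimming peptidase ERAP1 (-0.24).

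Metabolic, lysosomal, hormone and timing lists showed both directions. Antioxidant genes were 12 of 34 higher and 5 lower (median 0.14). GPX1 rose from 18.94 to 32.77 CPM (0.79), GPX4 (0.30), PRDX5 (0.28) and MGST3 (0.28) each in 36 of 42 steers, and the limiting enzyme of glutathione synthesis, GCLC, fell in 39 (-0.31). Lysosome genes were balanced, 13 of 37 higher and 13 lower, with ACP5 (0.25) and CLN3 (0.22) each higher in 39 of 42 steers and the proton pump subunit ATP6V1A lower in 38 (-0.30). Glycolysis and hypoxia genes had 6 of 32 higher, with GAPDH (0.21) and TPI1 (0.16), and 5 lower, with HIF1A (-0.31) and PDK1 (-0.28).

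In sterol and fatty acid metabolism 6 of 34 genes rose and 10 fell. The cholesterol exporter ABCA1 fell in 37 of 42 steers from 16.55 CPM (6.377 to 48.66) to 10.67 CPM (4.673 to 38.21) (-0.66, SE 0.0824, edgeR FDR 3.13e-08). MVK (0.29) and FDPS (0.25) rose. The glucocorticoid receptor NR3C1 fell in 38 of 42 steers (-0.31), and among its responders, 3 of 24 higher and 4 lower on the list, FKBP5 fell (-0.18) and TSC22D3 did not pass (0.16, FDR 0.0617). Clock genes had 6 of 21 higher and 8 lower. NR1D2 (-0.41), CRY1 (-0.25), CLOCK (-0.30) and ARNTL (-0.18) fell, and DBP (0.25) and PER3 (0.21) rose. The hours of the blood draws were not given in the sources used here. Immediate early genes had 4 of 26 higher, with JUND (0.21), and 7 lower, with EGR3 (-0.45).

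Transcripts of skin and muscle were higher on day 14, from low levels. These lists, 12 keratin and other skin genes and 8 skeletal muscle genes, were added after COL3A1 and its like had been seen. Their counts are therefore a description and not an independent test. All 12 skin genes were called higher, though most libraries held no count of most of them. KRT14 was at 0 in 30 day 7 and 15 day 14 libraries, with a highest level of 9.799 CPM on day 7 and 115 CPM on day 14. The summed skin level was higher on day 14 in 33 of 42 steers, from a median of 0.1498 to 1.231 CPM, and reached 10 CPM in 3 day 7 and 12 day 14 libraries. The median of the skin list was -0.358 in CEFT and above 0 in the other groups. Muscle genes were higher for 7 of 8, and their sum was higher in 40 of 42 steers, from a median of 4.383 CPM (1.326 to 271.6) to 8.172 CPM (2.622 to 51.23). It reached 10 CPM in 1 day 7 library, which held the highest sum of both days, and in 12 day 14 libraries. In the steers of low hemoglobin share 1 of the 8 was called, and without pairing by steer the estimates of MB (-0.26), CKM (-1.05), MYL1 (-1.60) and MYH7 (-0.22) were below 0. Without 2 steers with steep changes, Enro2 and Tula3, 3 of the 8 muscle genes were called. The median of the muscle list was near 0 in OXYT (7.35e-17) and TILD (0.0534) and lay between 0.578 and 4.47 in the other groups. Muscle genes also moved at other steps in a fit of the libraries of all days. From day 3 to 7 they were lower for 7 of 8 (median -3.59) and from day 14 to 21 for 4 (median -2.94), with 0 higher at either step. Of the 12 skin genes 2 were lower from day 3 to 7 and 1 from day 14 to 21.

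The change was read in each treatment group, and no gene was called as differing between groups in edgeR. With 6 pairs a group and 1 estimate of spread over all groups, edgeR called 1 gene in NC (0.00525% of tested genes, with 2934 below an unadjusted p of 0.05), 59 in CEFT (0.31%), 36 in TILD (0.189%), 338 in OXYT (1.77%), 400 in FLOR (2.1%), 3494 in TULA (18.3%) and 3950 in ENRO (20.7%). These counts depended on 2 steers. Without Enro2 and Tula3 they were 1998 in ENRO and 1085 in TULA, and rose to 20 in NC, 143 in CEFT, 1146 in FLOR, 1267 in TILD and 1377 in OXYT. The count over all steers was then 7618, 3666 higher and 3952 lower, of which 7549 were calls shared in the same direction with the 8483.

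The difference of the change between the 7 groups was tested for every gene, and 0 passed in edgeR (1882 genes, 9.88%, at an unadjusted p under 0.05, smallest FDR 0.145). limma voom called 1. The difference between the 36 treated steers and NC gave 0 (1086 genes, 5.7%, unadjusted, smallest FDR 0.388), with 2 in limma voom. The smallest p for the groups was that of CPT1A, the carrier of fatty acids into mitochondria. Its log2 fold change was above 0 in TULA (0.32), FLOR (0.27) and CEFT (0.24) and below 0 in NC (-0.21), OXYT (-0.41), TILD (-0.41) and ENRO (-0.69) (edgeR FDR 0.145). MICAL2 (FDR 0.257), IGHG1, with a count in only 1 day 7 and 3 day 14 libraries, LOC617141 and ACTB (each FDR 0.349) came next. For treated steers against NC these were LOC107131715 (FDR 0.388), REXO5 (0.67), EGR1, PFKFB3 and a small RNA gene (each 0.78). EGR1, an immediate early gene, had 0.75 in NC and between -1.22 and -0.12 in the treated groups.

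The change could be read in steers that had no part in choosing the genes. For each group in turn, genes were called from the other 6 groups and then read in the group left out. Of the genes called higher in the others, 86.1% were above 0 in NC and 79.8% in CEFT and FLOR, 90.1% in OXYT, 92.4% in TILD, 93.3% in ENRO and 96.6% in TULA. Of those called lower, between 84.6% (CEFT) and 97.2% (TULA) were below 0, whereas 49.9% to 52.6% of all genes were above 0 in a group. In NC, which had received no antimicrobial on day 0, the median change of these genes was 0.17 upward and -0.16 downward, against 0.23 and -0.26 in the fit of the other groups. This reading was added after the results were seen and carries no test.

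Within steers, the median change of the higher genes less that of the lower genes was above 0 in 41 of 42, with a lowest value of -0.35, a median of 0.36 and a highest of 1.58 on the log2 scale. The exception was Oxyt5. By lane the medians were 0.44, 0.37 and 0.31 for lanes 1, 2 and 3, with 14 steers each. The groups overlapped, with medians of 0.24 in FLOR, 0.29 in NC, 0.29 in CEFT, 0.37 in TULA, 0.44 in TILD, 0.49 in ENRO and 0.49 in OXYT.

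**Figure D3:**
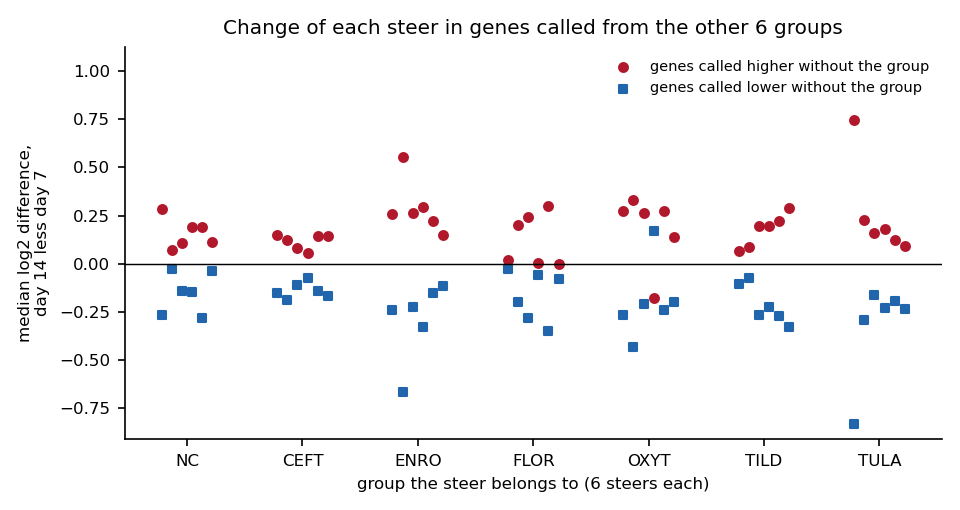
Median log2 difference (day 14 less day 7) in each steer over the genes called higher (circles) and lower (squares) from the other 6 groups only, 6 steers per group. Tula3 (0.75 and -0.83) and Enro2 (0.56 and -0.66) lie far from 0, and Oxyt5 is reversed (-0.18 and 0.17).

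Single genes followed the same picture by group. PRR33 had log2 fold changes of 0.35 in NC and 0.42 to 0.85 in the treated groups, CEP76 of -0.36 in NC and -0.72 to -0.40 in the treated groups, and CHD9 of -0.36 in NC and -0.83 to -0.42 in the treated groups. HBB had between 0.81 (TILD) and 2.70 (FLOR). None of these genes was called as differing between groups.

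The step from day 7 to day 14 had more called genes than any other between successive sampling days in a fit of the libraries of all days. It gave 8948 called genes (47%; 24.7% of tested genes higher and 22.3% lower). From day 0 to 3 there were 7389 (38.8%; 20.5% higher, 18.3% lower), from day 3 to 7 3711 (19.5%; 8.54% higher, 10.9% lower), from day 14 to 21 2294 (12%; 6.83% higher, 5.21% lower) and from day 21 to 56 1194 (6.27%; 3.45% higher, 2.82% lower). Steps differ in length, and neighbouring steps share libraries. The steps that share none with it were tested against it. From the day 0 to 3 step it differed in 3039 genes (15.9%), and from the day 21 to 56 step in 6670 genes (35%). Of the 8483 called genes, 4847 were also called from day 0 to 3, 4540 of them in the same direction. From day 21 to 56, 360 were called in the same direction, and others were called in the opposite direction. At that last step the median log2 fold change was 0.0117 for the genes higher on day 14 and 0.0114 for those lower. From day 0 to 3 these medians were 0.14 and -0.119. Of the 8483, 2058 (24.3%) differed from the first step, 1934 of them with the larger change in the day 14 direction at day 7 to 14. From the last step 5808 (68.5%) differed. The 8483 were chosen for a change between the same day 7 and day 14 libraries. That choice favors a difference in the day 14 direction, so these shares do not show that the step is distinct.

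**Figure D4:**
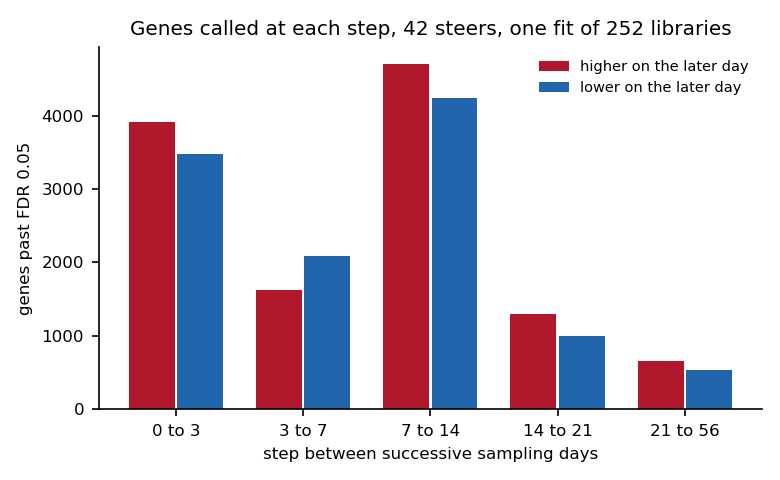
Number of genes called higher and lower at FDR 0.05 in each step between successive sampling days, in 1 fit of the libraries of all days with steer as a block. The day 7 to 14 step has 8948 called genes and the day 21 to 56 step 1194.

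Some gene lists changed direction after day 7 and others repeated the first step. Neighbouring steps share the libraries of a day. A reversal between them therefore cannot be told apart from something particular to that day. Neutrophil surface genes had fallen from day 0 to 3 (0 higher, 17 lower of 29) and from day 3 to 7 (0 higher, 21 lower). They rose at day 7 to 14 (12 higher, 0 lower). Of the 29, 17 differed from the first step upward, against 1521 of all 19056 genes tested. S100A9 had medians of 979.2, 780.2, 544.7, 699, 543.7 and 655.4 CPM on the 6 days in order. RFX2, a transcription factor, differed most clearly from the first step, with -0.67 from day 0 to 3 and 0.30 from day 7 to 14 (difference 0.97, edgeR FDR 4.74e-20), and BATF3 did so by 0.97 (FDR 1.48e-16). For CDC42EP3, MSL1 and MYADM, the next by p, the step at day 7 to 14 itself was not called. Glucocorticoid responders fell in the first step (1 higher, 16 lower of 24) and from day 3 to 7 (0 higher, 10 lower). At day 7 to 14 they were called in both directions (3 higher, 4 lower), under the 24.7% and 22.3% of all genes at that step. Upward differences from the first step were called for 6 of 24, against the same 1521 of 19056 genes.

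Chromatin modifiers fell in both steps, 39 of 57 lower at day 0 to 3 and 36 of 57 at day 7 to 14, with 4 higher and 4 lower between. CHD9 had medians of 36.01, 30.16, 31.77, 21.64, 22.33 and 22.57 CPM over the days. Cell cycle genes alternated, with 23 of 39 lower at day 0 to 3, 31 higher at day 3 to 7, 20 lower at day 7 to 14, 5 higher at day 14 to 21 and 18 lower at day 21 to 56. Sterol and fatty acid genes had risen in the first step (22 of 34) and 15 of 34 differed from it, downward, against 1518 of all 19056 genes tested.

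After day 14 several leading genes stayed on their day 14 side at the median, while hemoglobin genes came back down. PRR33 had medians of 9.177, 9.473, 9.168, 13.9, 12.99 and 12.98 CPM and GRAP of 175.6, 200.8, 211, 262.1, 255.9 and 256.2 CPM on the 6 days. CEP76 went 14.6, 12.8, 14.59, 9.825, 8.962 and 9.781 CPM. HBB had medians of 1131, 2782, 4690, 13880 and 14110 CPM from day 0 to day 21 and was at 1633 CPM on day 56. Its steps from day 3 to 7 and from day 14 to 21 were not called (edgeR FDR 0.463 and 0.962). All 9 hemoglobin genes fell from day 21 to 56, and all 9 differed upward at day 7 to 14 from that step, against 3229 of 19056 genes tested. Fewer genes of the other red cell lists fell from day 21 to 56. Heme synthesis had 4 of 12 lower and 0 higher, membrane genes 10 of 22 lower and 2 higher, and regulators 15 of 35 lower and 2 higher. GATA1 was not called at that step (edgeR FDR 0.994). FTH1, the ferritin heavy chain (difference 0.99, FDR 1.28e-12), ATP5IF1 (2.27, FDR 2.64e-12) and SLC25A39 (1.23, FDR 4.7e-12) rose at day 7 to 14 and fell at day 21 to 56 in edgeR, as did LOC781022 (1.01), and RNF145, a ubiquitin ligase of sterol regulation, went the other way (-0.45, FDR 1.28e-12).

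**Figure D5:**
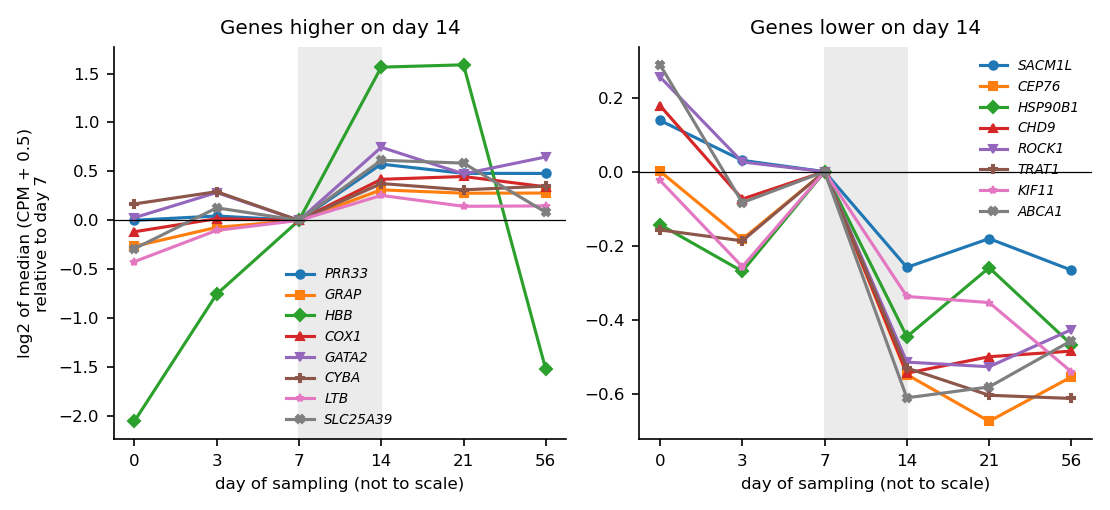
Median level over 42 steers on each sampling day relative to day 7, as log2 of CPM plus 0.5, for 8 genes higher and 8 genes lower on day 14. PRR33, GRAP, CEP76 and CHD9 keep their day 14 side on days 21 and 56, and HBB returns below its day 7 level by day 56.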

How the data were processed

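Whole blood was collected into PAXgene tubes, and stranded mRNA libraries were sequenced across 3 lanes. The authors trimmed reads with Trimmomatic 0.39, mapped them to ARS-UCD1.3 with HISAT2, assembled and quantified with StringTie 2.2.0, and derived gene counts from coverage with prepDE.py3 at a read length of 150. The deposited table holds these counts for 33282 genes with no adjustment for lane. Counts derived from coverage can move between neighbouring or merged gene names. In total 14226 genes were not tested, 4874 of them without a count in any library.

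Counts were tested with edgeR 4.0.16 (R 4.3.3), glmQLFit with robust estimation and glmQLFTest, after TMM scaling and a filter of CPM above 0.2 in at least 12 of the 252 libraries. Steer was a fixed block, and the Benjamini-Hochberg FDR threshold was 0.05 over all genes tested. The study had compared treatments with NC within days by likelihood ratio tests and used animal as a random effect in a mixed model; the animal was kept here as a block. The standard error of a fold change was taken from the F statistic. Each steer's libraries were paired by the individual identifier in the labels. Deviations of same-steer libraries from their day means correlated at a median r of 0.383 (0.106 to 0.552), above 0.1 in 42 of 42 steers. Each library was 1 sample of 1 steer. With steer as a block, p-values measure how the change between days varied from steer to steer, not differences in level between steers. They do not cover the spread between pens or between sampling dates. No pair of libraries was identical. Library measures were tested by 100000 sign flips of the paired differences (two-sided permutation test), adjusted over 6 measures.

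The gene lists and the choice of comparison were made with earlier results of these data known, and the lists of skin and muscle genes and the reading in held-out groups were added later. Genes were named as the 10 with the largest change in each direction among those called, of at least 1 CPM on average, with a plain symbol and the same direction in at least 34 steers, as the 5 of smallest p in each direction, as the 4 of smallest p in each list and members needed for a role, and as the 5 of smallest p in each test of a difference. Alternatives were the likelihood ratio test, DESeq2 1.42.0, limma 3.58.1 (voom), RLE size factors, library sizes without hemoglobin genes, other filters, ComBat_seq (sva 3.50.0) by lane, no steer block, FDR 0.1, single lanes, each group left out, groups fitted alone, steers of low hemoglobin share, and, added later, leaving out Enro2 and Tula3. The test over all steers was tried on simulated data. It called 6 of 50 genes with a log2 change of 0.25, 32 of 50 with 0.5, 48 of 50 with 1 and 50 of 50 with 2. Of its calls 1.45% were false. Steer effects were left out of the simulation and its spread was estimated without pairing, so these counts do not give the power of the paired test. Gene names were used as deposited; 16927 of the tested names matched RefSeq annotation of ARS-UCD2.0, a different build used only to find neighbours, so no coordinates are given. Some genes that the naming rule picks are not reported here.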

Additional observations from a re-analysis of the deposited data

Results flagged for a closer look

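Of 49 tests of a steer against the rest of its group of 6, 7 found a value that stood apart by Dixon's criterion, which chance passes in about 1 of 20 groups. Tula3 had a shift of 1.58 on the log2 scale between day 7 and day 14 (the other TULA steers 0.319 to 0.516), and Enro2 one of 1.22 (the other ENRO steers 0.264 to 0.621). Total counts changed by -26.6 M in NC12 (the others -3.45 to 9.39) and by -17.1 M in Ceft10 (the others -1.54 to 7.72), and Ceft10 had 920 fewer genes with a count on day 14 (a change of -920, the others -68 to 201). In Tild3 the hemoglobin share changed by -6.81 percentage points (the others -0.505 to 1.21) and the share of the 10 most counted genes by -10.6 (the others -0.0837 to 1.16). The causes were not tested.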

How the results depend on the processing

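Across all steers the count of called genes ranged from 2837 to 9609 over the alternatives. Single lanes of 14 steers gave 5297, 3668 and 2837 genes (lanes 1, 2 and 3; 2703, 1523 and 1232 higher, 2594, 2145 and 1605 lower), with fewer steers in each fit. Calls were 50.4% higher in the main setting and 41.5% higher in lane 2 alone. The fit without the replicate block, which drops the pairing by steer, gave 6087 genes, 2802 of them higher (46%), and 5952 were calls shared in the same direction. Scaling by RLE or without hemoglobin genes moved the median of all genes by less than 0.1. Of 8552 values for single genes, 7586 kept their direction and side of the threshold, 859 lost the call, 90 gained it and 17 reversed.

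Reversed log2 fold changes were, without the block, COL3A1 -0.60, LUM -0.0756, MB -0.26, CKM -1.05, MYL1 -1.60 and MYH7 -0.22. Under limma voom CKM gave -0.47 and MYL1 -0.73. In single lanes these were EGR1 0.213 (lane 1), FKBP5 0.0407 (lane 2) and, in lane 3, CD63 -0.0125, PPOX -0.00618, SPTB -0.00699, PADI4 -0.0496, CEBPE -0.0174, RPL36A 0.0781 and CTSD -0.0118.

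Group counts were the least stable. Fits on the 12 libraries of 1 group gave 0 in NC, FLOR, OXYT and TILD, 801 in CEFT and 261 in TULA. Without the block counts were 4 in NC, 0 in CEFT, FLOR and TILD, 1 in OXYT, 1479 in ENRO and 1642 in TULA. RLE gave 36 in CEFT and 141 in TILD, and FDR 0.1 gave 180 in CEFT, 1161 in FLOR, 1191 in OXYT and 1018 in TILD. Without Enro2 and Tula3, which also changes the shared estimate of spread, they were 1998 in ENRO, 1085 in TULA, 1377 in OXYT, 1267 in TILD, 1146 in FLOR, 143 in CEFT and 20 in NC. Differences between the 7 groups were called for 1 gene by limma voom, 1 without those 2 steers and 3 without the block, and between treated steers and NC for 2 by limma voom and 5 without the block. Without the block the other steps gave 4880 (day 0 to 3), 1430 (3 to 7), 808 (14 to 21) and 262 (21 to 56), and the differences from day 7 to 14 gave 1069 and 3959. The causes were not tested.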
